A study of Rattus norvegicus with 18 samples.

Results

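Fatty acid uptake by cultured rat hepatocytes was described through 7 genes, namely Cd36, the fatty acid transport protein genes Slc27a1, Slc27a2, Slc27a4 and Slc27a5, Lpl and Vldlr. The genes were chosen by name, with earlier results of these data known. Every probe set that the platform annotation gave to exactly 1 of these symbols was taken, which yielded 10 of the 31042 probe sets tested, 4 of them for Vldlr and 1 for each of the other genes. Where a gene had several probe sets, the one with the highest mean over the 18 arrays was its main probe set. One further probe set shared between Cd36 and another symbol was left out.

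The samples were primary hepatocytes from the liver of Wistar rats, hybridised to Affymetrix rat genome arrays. After attachment for 24 h, the cells received medium with insulin, hydrocortisone and gentamicin that held either the vehicle, 0.1% dimethyl sulfoxide (DMSO), or 30 or 100 µM EMD. EMD is, by the study's description, an agonist of both PPARα and PPARγ, nuclear receptors that fatty acids activate. RNA was taken after 24 or 72 h of exposure, with 3 arrays in each of the 6 groups. Hormones, antibiotic, strain and attachment period were shared by all groups, and the sources used here give no age for the animals. Labels and methods describe biological replicates, and by the methods the cells of every animal were given all treatments, but the labels do not tie an array to an animal. Whether the EMD dishes also held DMSO is not stated, so that a difference between EMD and DMSO may or may not include that of the vehicle.

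Fatty acids reach the hepatocyte bound to albumin or as lipoprotein triglyceride that is split outside the cell. CD36 is a membrane glycoprotein that binds long-chain fatty acids and oxidised lipoproteins and speeds their entry. The fatty acid transport proteins carry acyl-CoA synthetase activity, so that an incoming fatty acid is trapped as its CoA ester. Lipoprotein lipase, the product of Lpl, frees fatty acids from triglyceride-rich lipoproteins, and the VLDL receptor (Vldlr) binds such particles through apolipoprotein E. PPARα, the main PPAR of the hepatocyte, pairs with RXR and binds direct repeats of a half-site separated by a single base (DR1), and genes of fatty acid uptake and oxidation are among its known targets in rodent liver.

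At 72 h, 30 µM EMD raised 5 of the 7 genes and lowered 1 (all probe sets: 7.88% higher, 9.22% lower). Cd36 stood 9.86-fold above DMSO, Slc27a2 3.01-fold, Vldlr 2.73-fold, Lpl 2.24-fold and Slc27a1 1.96-fold, while Slc27a5 was 5.13-fold lower. The fold of Lpl is one between dim signals, since both group means lay under the median of all values on the arrays. At 24 h, among main probe sets, only Cd36 and Slc27a2 passed the test at either dose (all probe sets: 3.35% higher at 30 µM and 3.06% at 100 µM). Cd36 was then 48.0-fold higher at 30 µM and 29.4-fold higher at 100 µM. Of the other Vldlr probe sets, 1392924_at also passed it at 24 h, 1.78-fold higher at 30 µM and 1.79-fold at 100 µM. Slc27a4 passed no test. In the DMSO cultures themselves, Cd36 was 27.9-fold higher at 72 h than at 24 h. This fold of Cd36 and its EMD folds at 24 h start from a DMSO mean of 5.08 at 24 h, about the median of all values.

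All values below are log2 expression estimates from RMA (robust multi-array average) as deposited, so that a difference of 1 is a doubling. Differences were tested with limma in 1 fit of all 18 arrays, two-sided, with Benjamini-Hochberg adjustment over the 31042 probe sets, and a gene was called where the adjusted p was below 0.05. Each difference is given with its standard error. RMA gives no detection call, so the median of all values on the arrays, 5.08, is quoted for dim genes, and the level of one gene is never set against that of another. Array medians ran between 5.04 and 5.11, and arrays of the same group correlated at 0.988 to 0.996.

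Of 6 measured hepatocyte markers, none had a group mean under the median of all values, and their averaged level per array was 12.72 to 12.87 at 30 µM and 12.61 to 12.80 at 100 µM, against 13.12 to 13.31 in DMSO, at 72 h. Of these 6 markers, 4 were lower with each dose at 72 h (all probe sets: 9.22% lower at 30 µM and 9.68% at 100 µM). At 24 h, 1 was lower with each dose, Cps1 at 30 µM and Apoa1 at 100 µM (all probe sets: 2.01% and 2.95% lower). The 6 endothelial and the 3 adipocyte markers measured stayed under the median in every group, and none was called in any comparison of EMD with DMSO. Of 6 macrophage markers, 4 or 5 lay under the median in each group, their averaged level was 3.93 to 4.18 at 30 µM and 4.08 to 4.33 at 100 µM, against 4.11 to 4.35 in DMSO, at 72 h, and none was called with EMD. Of 7 stellate cell markers, 3 were lower with 30 µM and 2 with 100 µM EMD at 72 h, where their averaged level was 4.58 to 4.79 and 4.59 to 4.75, against 4.83 to 5.06 in DMSO. The 3′ minus 5′ signal of β-actin, a measure of RNA integrity and labelling, averaged 0.85 at 30 µM and 0.85 at 100 µM, against 0.70 in DMSO, at 72 h, and 1.29 to 1.33 in the 3 groups at 24 h. That of Gapdh averaged 0.171 at 30 µM and 0.141 at 100 µM, against 0.168 in DMSO, at 72 h, and 0.266 at 30 µM and 0.215 at 100 µM, against 0.289 in DMSO, at 24 h. The part of these markers and signals in the results was not tested, and in such bulk samples fewer cells of a type and less RNA per cell cannot be told apart.

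Promoter windows from RefSeq were at hand for 6 of the 7 genes, that is, for all but Lpl, each with 250 bases before and 50 after an annotated start in the rat assembly GRCr8. They were searched on both strands for the nuclear receptor half-site AGGTCA, and for 2 such half-sites separated by any 1 base. The half-site occurred in 16.2% and the DR1 arrangement in 0.0538% of all 33469 windows of this length. Among the 6 windows, the half-site occurred once in Slc27a1, starting 242 bases before the start, and once in Slc27a2, starting 76 bases before it, both on the strand opposite to the gene. No window of the 6 held the DR1 arrangement. Only exact copies were searched for, and an exact DR1 is rare in any window, so its absence says nothing of inexact sites. The following 4 are shown because Cd36 and Slc27a2 responded to EMD in all comparisons with DMSO, Slc27a1 holds the other match and Slc27a5 was the gene that fell. Capitals mark the half-site, read as its reverse complement. Cd36 lies at chr4:18246332-18246631 (plus strand), with the start 37.5 kb inside the annotated gene span, Slc27a2 at chr3:134257851-134258150 (plus strand), Slc27a1 at chr16:18312717-18313016 (plus strand), 1.11 kb inside the gene span, and Slc27a5 at chr1:82699286-82699585 (minus strand).
Cd36: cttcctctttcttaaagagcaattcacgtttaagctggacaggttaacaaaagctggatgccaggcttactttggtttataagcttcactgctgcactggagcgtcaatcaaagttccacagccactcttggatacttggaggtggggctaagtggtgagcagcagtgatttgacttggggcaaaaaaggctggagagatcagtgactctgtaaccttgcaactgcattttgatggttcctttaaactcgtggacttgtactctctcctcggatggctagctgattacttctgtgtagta
Slc27a2: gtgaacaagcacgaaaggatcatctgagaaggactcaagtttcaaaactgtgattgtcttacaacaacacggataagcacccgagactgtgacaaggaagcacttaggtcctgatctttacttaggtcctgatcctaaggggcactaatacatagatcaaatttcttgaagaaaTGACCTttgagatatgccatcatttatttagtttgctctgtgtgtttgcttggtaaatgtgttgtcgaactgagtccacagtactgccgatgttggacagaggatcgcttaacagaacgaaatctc
Slc27a1: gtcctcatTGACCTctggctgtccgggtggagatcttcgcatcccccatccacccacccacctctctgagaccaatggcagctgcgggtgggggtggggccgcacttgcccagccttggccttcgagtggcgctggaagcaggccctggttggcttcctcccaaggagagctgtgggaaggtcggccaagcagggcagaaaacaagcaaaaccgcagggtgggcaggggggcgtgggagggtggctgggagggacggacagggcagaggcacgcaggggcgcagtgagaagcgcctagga
Slc27a5: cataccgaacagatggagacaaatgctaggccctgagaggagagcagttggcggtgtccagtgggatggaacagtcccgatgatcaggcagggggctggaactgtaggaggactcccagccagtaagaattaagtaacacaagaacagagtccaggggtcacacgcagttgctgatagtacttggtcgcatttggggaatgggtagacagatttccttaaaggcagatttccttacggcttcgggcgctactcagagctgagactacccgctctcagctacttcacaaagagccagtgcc

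Cd36 gave the widest range of values of the 7 genes. With rising dose at 72 h, it read 9.77, 9.95 and 9.91 in DMSO cultures, 13.10, 13.20 and 13.24 at 30 µM and 12.88, 12.29 and 12.67 at 100 µM. At 24 h it read 5.63, 5.09 and 4.51 in DMSO cultures, 10.19, 10.56 and 11.24 at 30 µM and 9.35, 9.71 and 10.80 at 100 µM. All EMD arrays lay above all DMSO arrays of their time, and the DMSO arrays at 24 h lay around the median of all values. The difference from DMSO at 72 h was 3.30 ± 0.33 at 30 µM (limma adjusted p = 1.9e-06) and 2.73 ± 0.33 at 100 µM (adjusted p = 1.7e-05). At 24 h it was 5.59 ± 0.33 at 30 µM (adjusted p = 3.6e-09) and 4.88 ± 0.33 at 100 µM (adjusted p = 2.4e-08). Both comparisons of a time share the DMSO arrays.

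**Figure D1:**
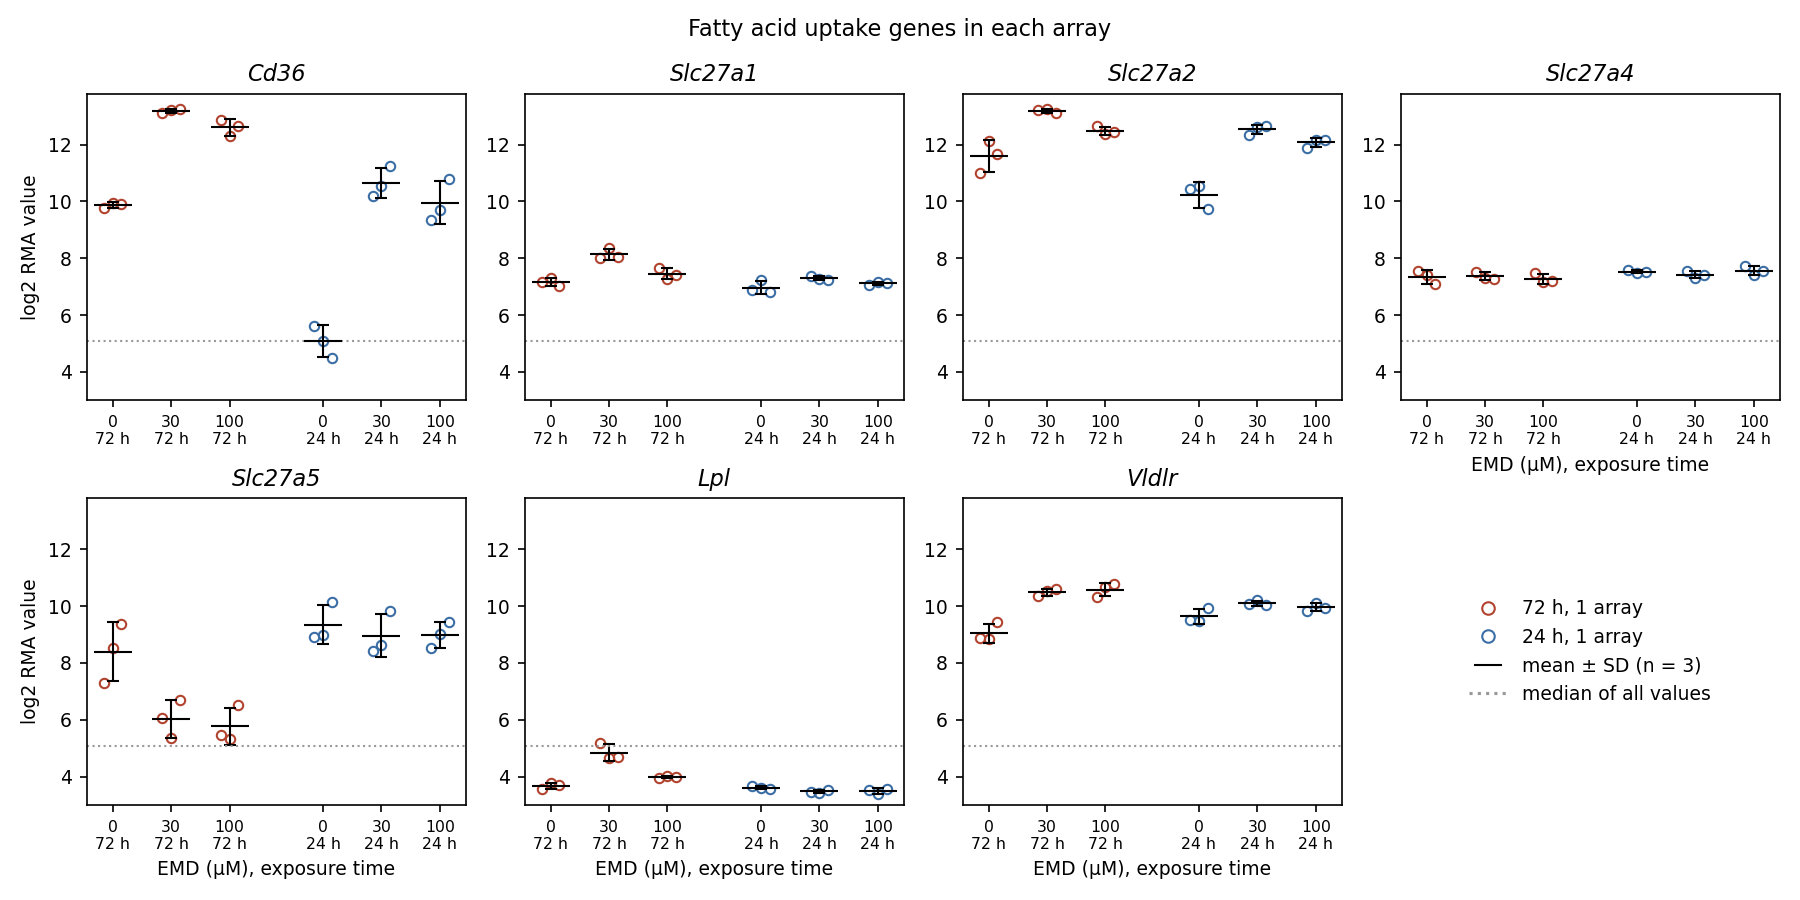
Log2 RMA values of the main probe set of each gene, with EMD dose (0 is DMSO) and exposure time on the horizontal axis. Circles are single arrays, bars the mean ± SD of 3 arrays, and the dotted line the median of all values, 5.08. In Cd36 the 3 DMSO arrays at 24 h (4.51 to 5.63) stand apart from all others.

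The order of the Cd36 group means ran 13.18 ± 0.073 (30 µM, 72 h), 12.61 ± 0.30 (100 µM, 72 h), 10.66 ± 0.53 (30 µM, 24 h), 9.96 ± 0.76 (100 µM, 24 h), 9.88 ± 0.095 (DMSO, 72 h) and 5.08 ± 0.56 (DMSO, 24 h; SD, n = 3 each). The ranges of the 2 EMD groups at 24 h overlapped each other, and that of 100 µM at 24 h overlapped that of DMSO at 72 h, whereas the other neighbours were apart. DMSO cultures at 72 h exceeded those at 24 h by 4.80 ± 0.33 (adjusted p = 9.5e-08), which was rank 22 by p among all 31042 probe sets for that comparison. Over the same time in DMSO, 3 of 6 macrophage markers were lower (all probe sets: 10.7% lower), namely Cd68 (-1.72), Clec4f (-1.16) and Csf1r (-0.73). Their list had an averaged level per array of 4.11 to 4.35 at 72 h and 4.61 to 5.29 at 24 h. Of the other markers, the hepatocyte factor Hnf4a (-0.62), 1 of 6 endothelial markers, Lyve1 (-0.43), and the stellate marker Pdgfrb (-0.49) were lower, and the stellate markers Rgs5 (1.17) and Reln (0.78) higher. Their part in the change of Cd36 was not tested. The EMD response was therefore measured from different vehicle levels at the 2 times. It was smaller at 72 h than at 24 h, with a difference of differences of -2.28 ± 0.46 at 30 µM (adjusted p = 0.026) and -2.14 ± 0.46 at 100 µM (adjusted p = 0.044). Neither call was stable. With an intensity trend and robust moderation, both were lost (limma adjusted p = 0.059 at 30 µM and 0.087 at 100 µM). A fit of the compared groups alone lost the one at 100 µM (0.11). The one at 100 µM was lost without replicate 2 or 3 of any of the 4 groups compared, and the one at 30 µM without replicate 2 or 3 of DMSO at 24 h or of 30 µM at 72 h, replicate 2 of DMSO at 72 h or replicate 3 of 30 µM at 24 h. Without 1 array at a time, the adjusted p reached 0.079 at 30 µM and 0.12 at 100 µM, while the difference of differences stayed between -2.56 and -2.00 at 30 µM and between -2.45 and -1.72 at 100 µM.

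Slc27a2 encodes FATP2, a liver and kidney transporter with very long-chain acyl-CoA synthetase activity. With rising dose at 72 h, it read 11.00, 12.12 and 11.67 in DMSO cultures, 13.23, 13.24 and 13.10 at 30 µM and 12.65, 12.37 and 12.45 at 100 µM. At 24 h it read 10.43, 10.54 and 9.72 in DMSO cultures, 12.35, 12.62 and 12.65 at 30 µM and 11.89, 12.18 and 12.18 at 100 µM. Each EMD group lay above the DMSO group of its time without overlap, and within each time all 30 µM arrays lay above all 100 µM arrays. The difference from DMSO at 72 h was 1.59 ± 0.23 at 30 µM (limma adjusted p = 9.6e-05) and 0.89 ± 0.23 at 100 µM (adjusted p = 0.011). At 24 h it was 2.31 ± 0.23 at 30 µM (adjusted p = 3.8e-06) and 1.85 ± 0.23 at 100 µM (adjusted p = 5.1e-05). The call at 100 µM and 72 h was lost without DMSO replicate 1, the lowest DMSO array at 72 h, where the difference was 0.59 (adjusted p = 0.060), and in a fit of the compared groups alone (adjusted p = 0.070).

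The DMSO cultures of Slc27a2 averaged 11.60 ± 0.56 at 72 h and 10.23 ± 0.45 at 24 h (SD, n = 3 each), a difference of 1.37 ± 0.23 (adjusted p = 0.00055). The EMD response of Slc27a2 differed between 72 h and 24 h by -0.72 ± 0.32 at 30 µM (adjusted p = 0.36) and -0.96 ± 0.32 at 100 µM (adjusted p = 0.23), which did not pass the test, although the response to 100 µM did so without DMSO replicate 1 at 72 h (adjusted p = 0.036) and with array weights (0.034). The difference between 100 and 30 µM was -0.70 ± 0.23 at 72 h (adjusted p = 0.12) and -0.45 ± 0.23 at 24 h (adjusted p = 1). The one at 72 h passed the test in a fit of the compared groups alone (adjusted p = 0.044) and with array weights (0.026). Cd36 and Slc27a2 were thus the 2 genes called higher in all 4 comparisons of EMD with DMSO and higher at 72 h than at 24 h in DMSO.

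Slc27a1 encodes FATP1, best known from muscle and fat, where insulin moves it to the cell surface. With rising dose at 72 h, it read 7.18, 7.30 and 7.02 in DMSO cultures, 8.00, 8.37 and 8.04 at 30 µM and 7.66, 7.28 and 7.41 at 100 µM. The 30 µM arrays lay above all others, and the 100 µM range overlapped that of DMSO. Against DMSO, the difference was 0.97 ± 0.13 at 30 µM (adjusted p = 3.4e-05) and 0.28 ± 0.13 at 100 µM (adjusted p = 0.14). Slc27a1 was lower at 100 than at 30 µM by a difference of -0.69 ± 0.13 (adjusted p = 0.0090). This dose call was lost without 1 of 3 arrays, namely 30 µM replicate 2 (adjusted p = 0.055), 100 µM replicate 2 (0.071) or 100 µM replicate 3 (0.054), and in a fit of the compared groups alone (0.078). At 24 h the 9 arrays spanned 6.81 to 7.38, and the difference from DMSO was 0.33 ± 0.13 at 30 µM (adjusted p = 0.16) and 0.16 ± 0.13 at 100 µM (adjusted p = 0.62). Without DMSO replicate 2 at 24 h, the difference at 30 µM was 0.46, at an adjusted p just under the threshold.

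Slc27a4 encodes FATP4, the transporter known from the small intestine and the skin. All 18 arrays lay between 7.08 and 7.72, and the ranges of all neighbouring groups in its order overlapped. The differences from DMSO were 0.03 ± 0.12 at 30 µM and -0.07 ± 0.12 at 100 µM at 72 h, and -0.10 ± 0.12 at 30 µM and 0.03 ± 0.12 at 100 µM at 24 h, with adjusted p between 0.78 and 0.94. Their 95% confidence intervals together ran from -0.36 to 0.30, so a change of 1 on the log2 scale lay outside each of them.

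Slc27a5 encodes FATP5, a liver transporter that also activates bile acids to their CoA esters. With rising dose at 72 h, it read 7.29, 8.52 and 9.38 in DMSO cultures, 6.04, 5.37 and 6.70 at 30 µM and 5.47, 5.32 and 6.50 at 100 µM. Every EMD array at 72 h lay below every DMSO array, although the DMSO arrays had the widest spread of any group, 8.40 ± 1.05 (SD, n = 3). The difference from DMSO was -2.36 ± 0.51 at 30 µM (limma adjusted p = 0.0035) and -2.63 ± 0.51 at 100 µM (adjusted p = 0.0016), that is, 5.13-fold and 6.20-fold lower. At 24 h it read 8.93, 8.99 and 10.13 in DMSO cultures, 8.41, 8.62 and 9.82 at 30 µM and 8.53, 9.01 and 9.44 at 100 µM. These ranges overlapped, and the difference from DMSO was -0.40 ± 0.51 at 30 µM (adjusted p = 0.78) and -0.36 ± 0.51 at 100 µM (adjusted p = 0.82). The EMD response at 72 h minus that at 24 h was -1.96 ± 0.72 at 30 µM (adjusted p = 0.25) and -2.27 ± 0.72 at 100 µM (adjusted p = 0.19), which did not pass the test. Both passed it with the replicate number as a block (limma adjusted p = 0.0063 and 0.0030), a number that the labels do not tie to an animal. Replicate 3 gave the highest value in every group. In DMSO, Slc27a5 differed between 72 h and 24 h by -0.95 ± 0.51 (limma adjusted p = 0.20, and 0.0082 with that block). At 72 h, 4 of the 6 hepatocyte markers were lower with EMD as well, namely Serpina1, Apoa1, Cps1 and Ttr. The difference of Serpina1 was -0.98 at 30 µM (adjusted p = 0.00023) and -1.18 at 100 µM (adjusted p = 4.2e-05). That of Apoa1, which encodes the main HDL apolipoprotein, was -0.75 at 30 µM (adjusted p = 2.6e-05) and -0.95 at 100 µM (adjusted p = 2.8e-06). The other markers were level, with differences of 0.012 at 30 µM and 0.014 at 100 µM for Alb (albumin) and 0.023 and 0.015 for Hnf4a. The part of the hepatocyte markers in the fall of Slc27a5 was not tested.

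**Figure D2:**
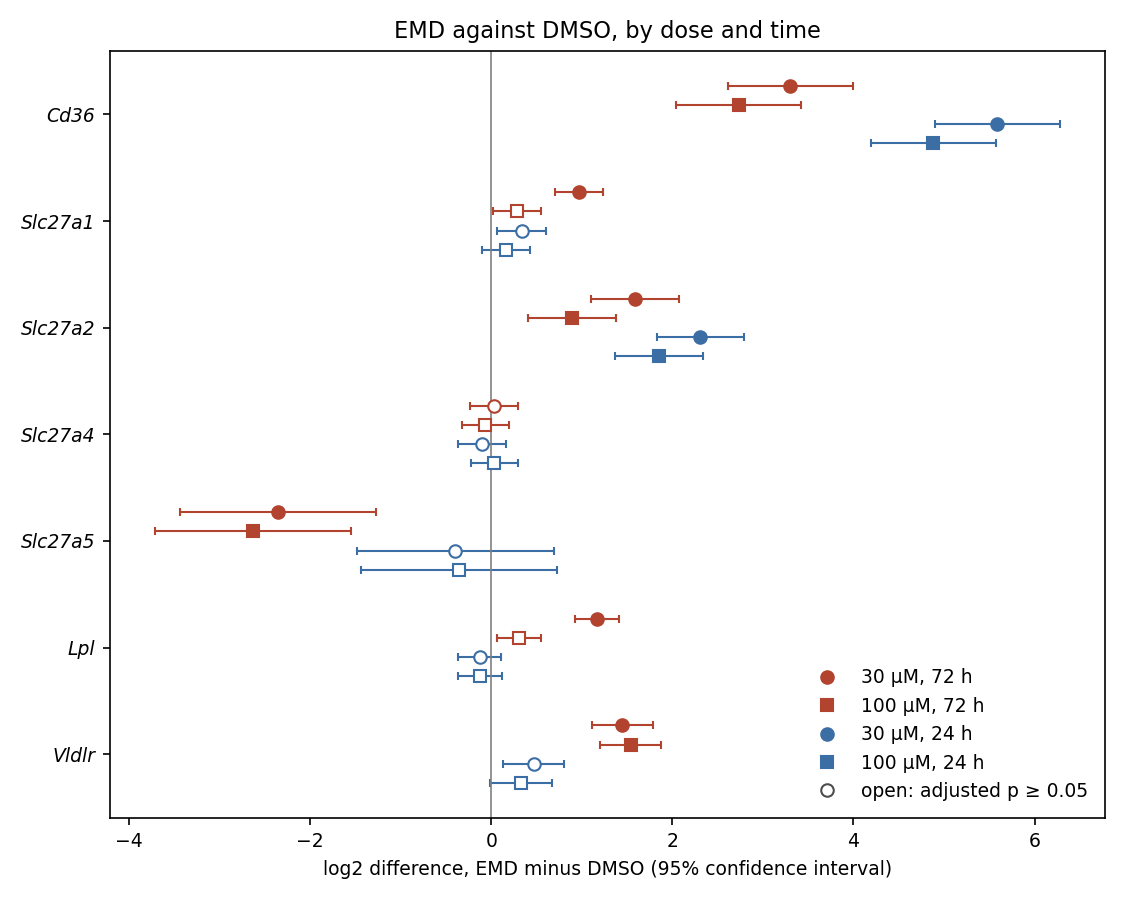
Log2 difference of EMD minus DMSO for the main probe set of each gene, with its 95% confidence interval. Red marks 72 h, blue 24 h, circles 30 µM and squares 100 µM, and open symbols have an adjusted p of at least 0.05. Cd36 and Slc27a2 are higher throughout, and Slc27a5 is lower at 72 h.

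Lpl was dim. It read between 3.37 and 4.00 on 15 of the 18 arrays, below the median of all values. With rising dose at 72 h, it read 3.57, 3.78 and 3.69 in DMSO cultures, 5.19, 4.65 and 4.70 at 30 µM and 3.96, 4.00 and 3.99 at 100 µM. Only 30 µM replicate 1 exceeded the median of all values, yet the 3 groups at 72 h did not overlap. The difference from DMSO was 1.17 ± 0.11 at 30 µM (limma adjusted p = 1.8e-06) and 0.30 ± 0.11 at 100 µM (adjusted p = 0.081). The 100 µM group was lower than the 30 µM group by a difference of -0.86 ± 0.11 (adjusted p = 0.0014), a call lost in a fit of the compared groups alone (adjusted p = 0.060). At 24 h, where all 9 arrays lay between 3.37 and 3.68, the difference from DMSO was -0.13 ± 0.11 at each dose, with adjusted p of 0.65 at 30 µM and 0.68 at 100 µM. The 30 µM response of Lpl was larger at 72 h than at 24 h by 1.30 ± 0.16 (adjusted p = 0.0012), and that to 100 µM differed by 0.43 ± 0.16 (adjusted p = 0.29). At such low signal, RMA differences can understate the change in transcript.

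Vldlr was read by 4 probe sets. With rising dose at 72 h, the main probe set 1389611_at read 8.88, 8.82 and 9.42 in DMSO cultures, 10.35, 10.53 and 10.59 at 30 µM and 10.32, 10.66 and 10.77 at 100 µM. All 6 EMD arrays lay above the DMSO arrays, and the ranges of both doses overlapped. This made a difference from DMSO of 1.45 ± 0.16 at 30 µM (limma adjusted p = 6e-06) and 1.54 ± 0.16 at 100 µM (adjusted p = 3.9e-06). At 24 h it read 9.51, 9.47 and 9.92 in DMSO cultures, 10.06, 10.20 and 10.05 at 30 µM and 9.82, 10.11 and 9.95 at 100 µM. The 30 µM arrays lay just above the DMSO arrays, and the 100 µM range overlapped that of DMSO. Here the difference from DMSO was 0.47 ± 0.16 at 30 µM (adjusted p = 0.12) and 0.33 ± 0.16 at 100 µM (adjusted p = 0.32), and without DMSO replicate 3 at 24 h the one at 30 µM was 0.61 (adjusted p = 0.048). In DMSO, unlike Cd36 and Slc27a2, Vldlr was lower at 72 h than at 24 h, with a difference of -0.59 ± 0.16 (adjusted p = 0.015). That call was lost without DMSO replicate 1 (adjusted p = 0.058) or 2 (0.073) at 72 h, without DMSO replicate 3 at 24 h (0.077) and in a fit of the compared groups alone (0.078). The response to 100 µM was larger at 72 h than at 24 h by 1.21 ± 0.23 (adjusted p = 0.021). Leaving out replicate 2 or 3 of 100 µM at 72 h, replicate 2 of DMSO at 72 h, replicate 1 or 3 of 100 µM at 24 h, or replicate 3 of DMSO at 24 h ended this call (adjusted p between 0.051 and 0.072), and in a fit of the compared groups alone the adjusted p was 0.084. The response to 30 µM differed by 0.98 ± 0.23 (adjusted p = 0.051). It missed the threshold narrowly. It passed under 5 of 6 settings other than the replicate block (adjusted p 0.011 to 0.044), with that block (0.0083) and without DMSO replicate 3 at 72 h (0.0088).

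The Vldlr probe sets differed in their calls at 24 h, although all 4 had differences above 0, and no test compared them with each other. At 72 h all 4 were higher with EMD at both doses, with differences between 1.37 and 1.85. At 24 h, 1392924_at was higher by 0.84 ± 0.16 at 30 µM (adjusted p = 0.0031) and by 0.84 ± 0.16 at 100 µM (adjusted p = 0.0029), while the other 3 had differences between 0.23 and 0.53 and adjusted p between 0.057 and 0.57. In DMSO, 1392924_at differed between 72 h and 24 h by -0.05 ± 0.16 (adjusted p = 0.85), whereas 1387455_a_at (-0.74, adjusted p = 0.0032) and 1369098_at (-0.52, adjusted p = 0.035) were lower at 72 h like the main probe set. At 100 µM, the response at 72 h minus that at 24 h was 1.24 for 1387455_a_at (adjusted p = 0.016) and 1.14 for 1369098_at (0.036). For 1392924_at it was 0.59 ± 0.22 and was not called (adjusted p = 0.30). At 30 µM, 1392924_at was called (1.01, adjusted p = 0.040), while 1387455_a_at (0.94, 0.053) and 1369098_at (0.99, 0.059) were not. Averaged over the 4 probe sets, the difference from DMSO at 30 µM and 24 h was 0.56 (adjusted p = 0.029). Which transcripts each probe set reads is not annotated in the sources used here.

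**Figure D3:**
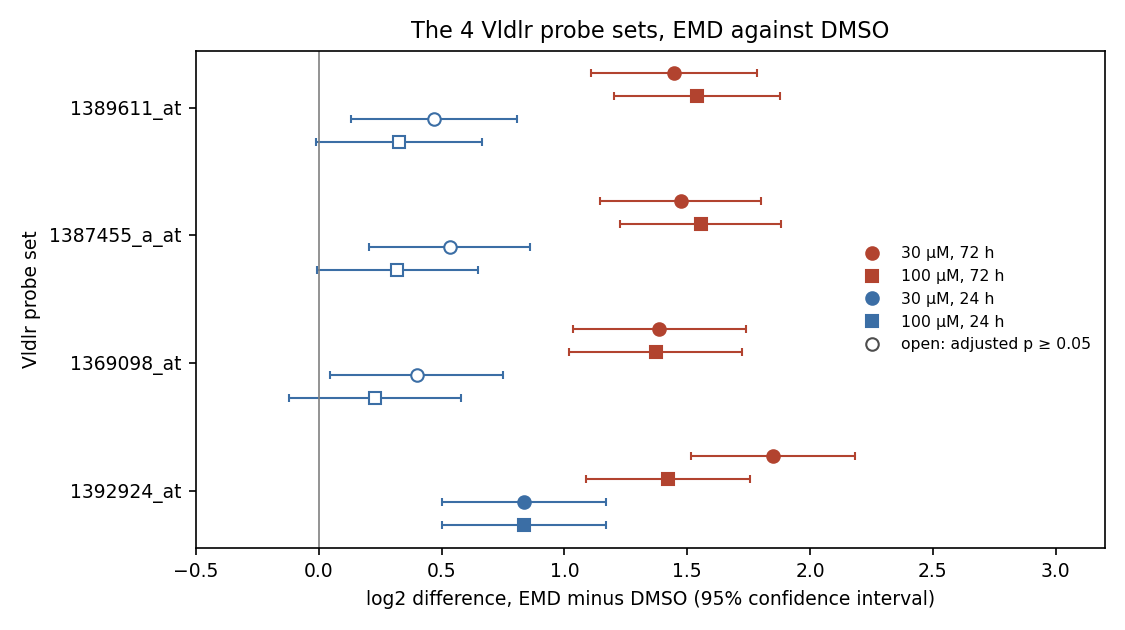
Log2 difference of EMD minus DMSO for the 4 Vldlr probe sets, with its 95% confidence interval. Red marks 72 h, blue 24 h, circles 30 µM and squares 100 µM. At 24 h only 1392924_at has filled symbols, that is, an adjusted p below 0.05.

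Counted by main probe set, 5 of 7 genes were called higher and 1 lower at 30 µM and 72 h, where 7.88% of all probe sets were called higher and 9.22% lower. Since the genes were chosen with earlier results of these data known, this and the following shares are a description. At 100 µM and 72 h, 3 were called higher and 1 lower (all probe sets: 7.42% higher, 9.68% lower). At 24 h, 2 were called higher and 0 lower at 30 µM (3.35% higher, 2.01% lower) and likewise at 100 µM (3.06% higher, 2.95% lower). For the 0 genes lower at 24 h, limma also gave 0 at an unadjusted p under 0.05 at either dose (all probe sets: 8.80% lower at 30 µM and 9.42% at 100 µM). Arrays of EMD and DMSO did not overlap for 5 genes higher and 1 lower at 30 µM and 72 h (all probe sets: 15.7% higher, 16.2% lower), for 4 higher and 1 lower at 100 µM and 72 h (15.2% higher, 14.0% lower), for 4 higher and 1, Lpl, lower at 30 µM and 24 h (9.01% higher, 12.4% lower), and for 2 higher and 0 lower at 100 µM and 24 h (9.23% higher, 11.6% lower). The median difference over the 7 genes was 1.17 at 30 µM and 0.30 at 100 µM at 72 h, and 0.33 at 30 µM and 0.16 at 100 µM at 24 h, and over all probe sets it lay between -0.03 and 0.02. In DMSO at 72 h against 24 h, 2 of 7 were higher and 1 lower (all probe sets: 11.0% higher, 10.7% lower).

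Between the doses, no gene was called at 24 h (limma, all probe sets: 0% in each direction), and 1 of the 7, Cd36, had an unadjusted p under 0.05 (4.58% of all probe sets). At 72 h, 0 were called higher and 2, Slc27a1 and Lpl, lower at 100 than at 30 µM (all probe sets: 1.25% higher, 1.85% lower), and at an unadjusted p under 0.05 the counts were 0 higher and 3 lower (all probe sets: 7.37% higher, 7.97% lower). For Cd36 the difference between 100 and 30 µM was -0.57 ± 0.33 at 72 h (adjusted p = 0.45) and -0.71 ± 0.33 at 24 h (adjusted p = 1). For Vldlr at 72 h it was 0.09 ± 0.16 (adjusted p = 0.87), with a 95% confidence interval from -0.25 to 0.43. When the response at 72 h was set against that at 24 h, 1 gene was called higher (Lpl) and 1 lower (Cd36) at 30 µM (all probe sets: 0.412% higher, 0.528% lower), and 1 higher (Vldlr) and 1 lower (Cd36) at 100 µM (0.245% higher, 0.448% lower).

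**Figure D4:**
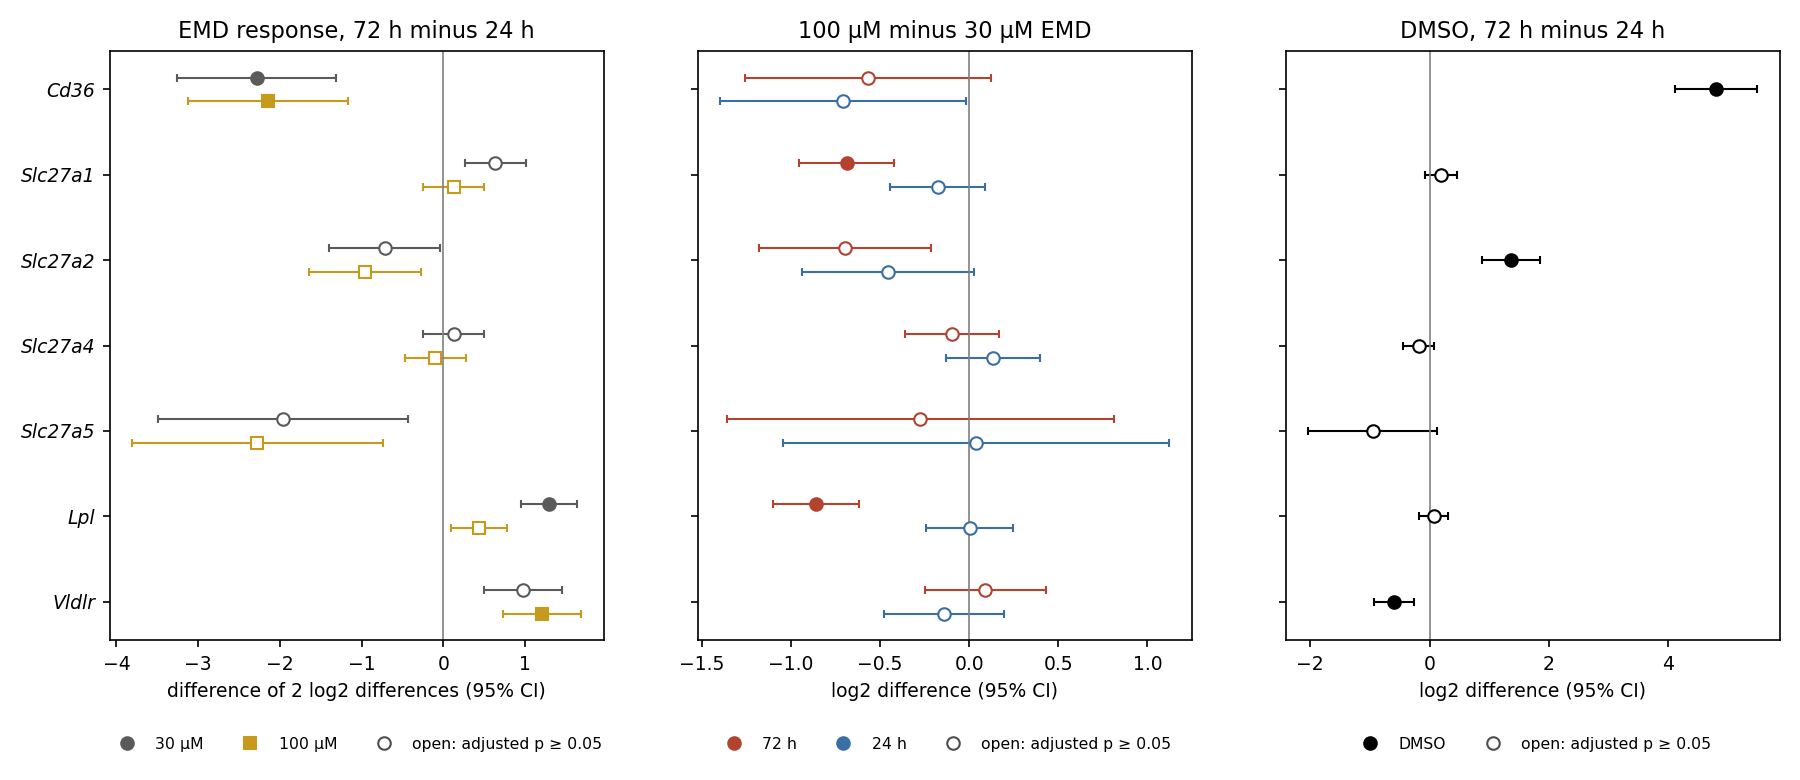
Left, EMD response at 72 h minus that at 24 h. Middle, 100 minus 30 µM EMD at each time. Right, DMSO at 72 h minus 24 h. All are on the log2 scale with 95% confidence intervals for the main probe set of each gene, and open symbols have an adjusted p of at least 0.05. Cd36 lies below 0 on the left (-2.28 and -2.14) and at 4.80 on the right.

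Of 35 further genes of uptake, binding, activation and lipolysis, chosen with earlier results of these data known, 29 were measured. With EMD against DMSO at 72 h, 9 were higher and 3 lower at 30 µM (all probe sets: 7.88% higher, 9.22% lower). At 100 µM, 11 were higher and 4 lower (7.42% higher, 9.68% lower). At 24 h, 7 were higher and 1 lower at 30 µM (3.35% higher, 2.01% lower), and 7 higher and 2 lower at 100 µM (3.06% higher, 2.95% lower). Among 9 binding and uptake genes, Fabp1, the liver fatty acid binding protein, was higher by 3.98 ± 0.19 at 30 µM and 3.48 ± 0.19 at 100 µM at 72 h, and by 3.95 ± 0.19 and 3.76 ± 0.19 at 24 h (adjusted p at most 3.1e-09). Fabp3, the heart-type binding protein, was higher by 6.36 ± 0.31 at 30 µM and 5.43 ± 0.31 at 100 µM at 72 h (adjusted p = 3.5e-10 and 3.5e-09). At 24 h Fabp3 was higher by 2.47 ± 0.31 at 30 µM and 2.16 ± 0.31 at 100 µM (adjusted p = 5.6e-05 and 0.00023). Its response was larger at 72 h than at 24 h, by 3.89 ± 0.44 at 30 µM and 3.27 ± 0.44 at 100 µM (adjusted p = 0.00053 and 0.0028). Cav1, the coat protein of caveolae, was lower by a difference of -2.41 ± 0.41 at 30 µM (adjusted p = 0.00051) and -2.07 ± 0.41 at 100 µM (adjusted p = 0.0019) at 72 h, and of -1.75 ± 0.41 at 100 µM and 24 h (adjusted p = 0.015). Fabp2, the intestinal form, was lower at 100 µM and 72 h (-0.84 ± 0.22, adjusted p = 0.014), at a mean over all arrays of 4.42, under the median of all values.

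Of the 5 long-chain acyl-CoA synthetases, which activate fatty acids inside the cell, Acsl1, Acsl3 and Acsl5 were higher in all 4 comparisons. Acsl1 was higher by 3.34 ± 0.11 at 30 µM and 3.03 ± 0.11 at 100 µM at 72 h, and by 3.56 ± 0.11 and 3.63 ± 0.11 at 24 h. Acsl3 was higher by 3.16 ± 0.14 and 3.11 ± 0.14 at 72 h, and by 3.25 ± 0.14 and 3.39 ± 0.14 at 24 h (adjusted p at most 1.8e-10 for both genes). Acsl4, which prefers arachidonic acid, was lower at 30 µM and 72 h (-0.61 ± 0.12, adjusted p = 0.0017).

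Of 8 lipases and lipase regulators, Angptl4, an inhibitor of lipoprotein lipase, was higher by 1.65 ± 0.13 at 30 µM and 1.63 ± 0.13 at 100 µM at 72 h, and by 3.17 ± 0.13 and 3.23 ± 0.13 at 24 h (adjusted p at most 1.8e-07). Like Cd36, Angptl4 was higher in DMSO at 72 h than at 24 h (1.48 ± 0.13, adjusted p = 1e-06), and its EMD response was smaller at 72 h than at 24 h, with a difference of differences of -1.52 ± 0.18 at 30 µM (adjusted p = 0.00095) and -1.60 ± 0.18 at 100 µM (adjusted p = 0.00091). Apoa5, a plasma activator of triglyceride hydrolysis, was lower by a difference of -2.10 ± 0.18 at 30 µM and -2.36 ± 0.18 at 100 µM at 72 h, and of -0.91 ± 0.18 and -1.16 ± 0.18 at 24 h (adjusted p at most 0.0038). Apoc2, the cofactor that lipoprotein lipase requires, was lower at 100 µM and 72 h (-1.36 ± 0.25, adjusted p = 0.0011). Of 5 lipoprotein receptor genes, Lrp1, a large endocytic receptor of remnant particles, was the one called, higher by 1.76 ± 0.21 at 30 µM and 1.26 ± 0.21 at 100 µM at 72 h (adjusted p = 1.3e-05 and 0.00041), and by 1.62 ± 0.21 and 1.57 ± 0.21 at 24 h. Of the 2 receptor genes, Pparg was higher at 100 µM and 72 h (0.72 ± 0.24, adjusted p = 0.049), and Ppara was not called with EMD.

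Across the 18 arrays, the 12526 probe sets of other genes with 1 symbol and a mean above the median of all values were ranked by Pearson's r with each gene, given here as a description, since the arrays share groups. Cd36 was followed most closely by Glrx (r = 0.98), Aldh1a1 (0.98) and Pik3c2a (0.98), and Slc27a2 by Vnn1 (0.98), Chpt1 (0.98) and Cyp2j4 (0.98). Vldlr was followed by Cdk2, Slc25a13 and Oat (0.95 each), Slc27a1 by Tmem205 (0.95), Sorl1 (0.95) and Manea (0.93), and Slc27a5 by Hsd11b1 (0.94), Cyp1a2 (0.93) and Iars1 (0.92). Lpl was followed by Cebpa (0.90), Sugct (0.89) and Tmem205 (0.88), and Slc27a4, whose values barely moved, by Mfhas1 (0.86), Cic (0.85) and Abtb2 (0.85). Among the 7 genes themselves, Cd36 and Slc27a2 had r = 0.94, Slc27a1 and Lpl 0.84, and Slc27a5 had negative r with every other gene except Slc27a4 (0.29), the lowest being -0.75 with Slc27a1.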

How the data were processed

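The values were log2 RMA expression estimates, deposited by the authors as 1 table of 18 arrays. RMA corrects the background, brings the arrays to a common distribution and summarises the probes of a set, and the sources used here do not give its software version. In this scaling, changes are relative to the other transcripts on the array. From 31099 probe sets, 57 control probe sets were left out and 31042 tested. The platform annotation gave 1 symbol to 20826 of them, several to 436 and none to 9780. By gene ID, 20758 matched the RefSeq table of GRCr8, which also gave the promoter windows.

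Groups were taken from the labels. A model of 6 group means was fitted with limma 3.58.1 (lmFit, eBayes) in R 4.3.3, and 9 comparisons were drawn from it, with Benjamini-Hochberg adjustment over all probe sets within each. The median standard error of a difference was 0.12, and the number of arrays limits the precision. Figures were drawn with matplotlib 3.10.9 in Python 3.11.15. The fit was run on simulated data with independent noise in each array, which does not cover the correlation of same-numbered arrays seen here. The 7 genes, the marker lists and the list of 35 further genes were chosen with earlier results of these data known. From the latter, up to 4 called rises and 4 called falls with the largest difference were named in each comparison of EMD with DMSO. Acsl5, Lrp1, Pparg and Ppara, which make up counts of 5 or fewer, were named outside this rule, after their values were seen. Fabp3 at 24 h and Angptl4 at 72 h were also given outside it, since the rule named each gene at the other time. Alternatives were cyclic loess of the deposited values, a fit of the compared groups alone, an intensity trend with robust moderation, array weights, the replicate number as a block, a filter on dim probe sets, averaging the probe sets of a gene, and leaving out each array. The arrays of a group are biological replicates per the labels and, by the methods, each animal's cells received every treatment. Since no label ties an array to an animal, the fit treated the arrays as independent, and p-values measure the spread between them. That independence is an assumption, since 17 of 18 arrays correlated best with arrays of their own replicate number. A difference that did not pass the unpaired test may therefore pass with the number as a block, as for Slc27a5.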

Additional observations from a re-analysis of the deposited data

Results flagged for a closer look

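In 3 genes, the response to EMD differed between 72 and 24 h by the test of the difference itself (limma, adjusted over all probe sets). For Cd36, the response at 72 h minus that at 24 h was -2.28 at 30 µM (adjusted p = 0.026) and -2.14 at 100 µM (adjusted p = 0.044), with DMSO levels of 9.88 at 72 h and 5.08 at 24 h. For Lpl it was 1.30 at 30 µM (adjusted p = 0.0012), at levels under the median of all values in each group mean. For the main probe set of Vldlr it was 1.21 at 100 µM (adjusted p = 0.021), with DMSO levels of 9.04 at 72 h and 9.63 at 24 h. The Vldlr probe set 1392924_at gave 0.59 and was not called (adjusted p = 0.30). The Cd36 and Vldlr calls were lost on leaving out single arrays, whereas that of Lpl was not.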

How the results depend on the processing

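The calls of EMD against DMSO for Cd36, Slc27a2 (other than at 100 µM and 72 h), Slc27a1, Slc27a5, Lpl and Vldlr held for the main probe sets, at the doses and times called above, in every alternative run, except that the filter on dim probe sets left out Lpl. Of 432 values of the 7 genes under other settings, 404 kept their direction and their side of the threshold, 8 lost the call, 15 gained one and 5 changed sign. On leaving out an array, 414 of 462 were unchanged in this sense, 27 lost the call, 4 gained one and 17 changed sign. The causes were not tested.

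The values that changed sign were uncalled with all arrays, where they lay between -0.36 and 0.13. They were, for 100 minus 30 µM, Lpl at 24 h with cyclic loess (-0.025; -0.032 to 0.058 without 1 array), Slc27a5 with array weights at 24 h (-0.0047; -0.23 to 0.47) and at 72 h (0.11; -0.64 to 0.059), and Vldlr at 72 h over the mean of its probe sets (-0.067; -0.0016 to 0.22). For EMD minus DMSO they were Slc27a4 at 30 µM and 72 h with array weights (-0.011; -0.10 to 0.13) and, without 1 array, at 100 µM and 72 h (-0.19 to 0.036) and 24 h (-0.046 to 0.11), and Slc27a5 at 100 µM and 24 h (-0.58 to 0.031). For the response at 72 h minus 24 h they were Slc27a4 at 30 µM (-0.0016 to 0.23) and 100 µM (-0.23 to 0.00067) and Slc27a1 at 100 µM (-0.0012 to 0.21).

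The replicate numbers of the labels are not stated to mark an animal. Same-numbered arrays of a time had deviations from the group means that correlated above 0.1 in 16 of 18 pairs (median 0.37), and 17 of 18 arrays correlated best with their own number. With the number as a replicate block, 1625 probe sets were called for 100 against 30 µM at 72 h (963 without it) and 3 at 24 h (0), 924 for the response to 30 µM at 72 h against 24 h (292) and 534 for that to 100 µM (215). Of the 7 genes, 2 were then higher and 2 lower for the response to 30 µM, 2 were lower for that to 100 µM, and 2 were lower in DMSO at 72 h against 24 h. The gains were Slc27a5 in the response to 30 µM (adjusted p = 0.0063), in that to 100 µM (0.0030) and in DMSO (0.0082), and Vldlr in the response to 30 µM (0.0083) and for 30 µM against DMSO at 24 h (0.033). The block lost no call of the 7 genes.

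For the response to 30 µM at 72 h against 24 h, 2 genes were higher with cyclic loess, with trend and robust moderation and with the mean of probe sets, and 3 with array weights (Lpl, Vldlr and, at adjusted p = 0.0497, Slc27a1); 0 were lower with trend and robust moderation; array weights called 641 probe sets. For that to 100 µM, a fit of the compared groups called 0 genes in each direction and 76 probe sets, trend and robust moderation called 0 lower, and array weights called 2 lower and 1090 probe sets. For 100 against 30 µM at 72 h, a fit of the compared groups called 1 gene lower, Slc27a2 in place of Slc27a1 and Lpl, and 141 probe sets, the filter on dim probe sets 1 gene, and array weights 3336 probe sets, and at 24 h array weights called 9. For 100 µM against DMSO at 72 h, where 5308 probe sets were called, a fit of the compared groups called 3305 and array weights 8192. For DMSO at 72 h against 24 h, a fit of the compared groups called 0 genes lower and 3997 probe sets, against 6738 with all groups.

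Without 1 array, the genes called for the response to 30 µM were 1 to 2 higher and 0 to 1 lower (123 to 475 probe sets), and for that to 100 µM 0 to 1 higher and 0 to 2 lower (57 to 800 probe sets). For 100 against 30 µM, 1 to 2 genes were lower at 72 h (141 to 2541 probe sets), with 0 to 2 probe sets called at 24 h. In DMSO at 72 h against 24 h, 0 to 1 genes were lower (4691 to 5718 probe sets). Probe sets called for EMD against DMSO at 24 h were 1027 to 1420 at 30 µM (1664 with all arrays) and 1207 to 1605 at 100 µM (1867), and at 100 µM and 72 h 3664 to 6097.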
